A study of Mus musculus with 24 samples.

Results

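Extracellular adenosine and the breakdown of tryptophan are 2 metabolic routes by which tumours restrain T cells, and the 7 genes described here encode enzymes and receptors of both. They were chosen by name, as Nt5e, Entpd1, Adora2a, Adora2b, Ada, Ido1 and Kynu, and all 7 were found among the 18723 genes of the deposited expression table. The tumours were Lewis Lung Cancer, a transplantable mouse lung carcinoma line, grown in wild-type mice and profiled whole by stranded mRNA sequencing. The 8 triple tumours came from mice given PMX53, taken here as the C5aR1 blocker of the title, at 1 mg/kg daily from day 6 under the skin, together with 100 µg of anti-PD-1 on days 7, 10 and 14 into the peritoneum and 50 µg of poly I:C on days 11 and 15 into the tumour. The 8 dual tumours came from mice given the same anti-PD-1 and poly I:C without PMX53, and the 8 vehicle tumours from mice given vehicle. PMX53 alone was not analysed here. Each tumour carries its own number in the labels, and nothing else says whether the tumours came from separate animals, so that p-values measure the spread between these tumours. Library numbers ran in blocks with the groups, so that library order and treatment cannot be told apart.

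ATP released by stressed cells alerts immune cells, and a chain of enzymes on the cell surface turns that signal into its opposite. CD39, encoded by Entpd1, removes phosphates from ATP and ADP to give AMP, and CD73, encoded by Nt5e, converts AMP to adenosine, which raises cyclic AMP in T cells, natural killer cells and myeloid cells through the receptors encoded by Adora2a and Adora2b and dampens them. Adenosine deaminase, encoded by Ada, ends the signal by converting adenosine to inosine. In the other route indoleamine 2,3-dioxygenase 1, encoded by Ido1 and known as an interferon-induced enzyme, opens the ring of tryptophan, and kynureninase, encoded by Kynu, cleaves kynurenine further down, while kynurenine itself can act on the aryl hydrocarbon receptor.

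In the GRCm39 coordinates of the deposited table, Nt5e (ENSMUSG00000032420.9) lies on chromosome 9 from 88209250 to 88254145 on the plus strand. Entpd1 (ENSMUSG00000048120.17) lies on chromosome 19 from 40600810 to 40730046, plus strand. The adenosine receptor genes are Adora2a (ENSMUSG00000020178.7) on chromosome 10 from 75152711 to 75170618 and Adora2b (ENSMUSG00000018500.3) on chromosome 11 from 62139810 to 62157279, both on the plus strand. Chromosome 2 holds Ada (ENSMUSG00000017697.4) from 163568504 to 163592159 on the minus strand and Kynu (ENSMUSG00000026866.18) from 43445341 to 43572734 on the plus strand. Ido1 (ENSMUSG00000031551.13) lies on chromosome 8 from 25074152 to 25087025, minus strand. All are annotated as protein-coding, values are over whole genes, and no other gene of the table overlapped any of them.

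Promoters of Nt5e and Ada are shown because Nt5e was called against vehicle in both treated groups and Ada separated triple from vehicle tumours. The bases are the 250 before the RefSeq transcription start of each gene on GRCm38.p6, printed 5′ to 3′ on the gene's own strand, with capitals on the motif found: GCGTG, the core of hypoxia and aryl hydrocarbon response elements, in Nt5e (chr9:88327359-88327608, plus strand), and TTCNNNGAA, the GAS-like form bound by STAT factors, in Ada (chr2:163750240-163750489, minus strand).
Nt5e: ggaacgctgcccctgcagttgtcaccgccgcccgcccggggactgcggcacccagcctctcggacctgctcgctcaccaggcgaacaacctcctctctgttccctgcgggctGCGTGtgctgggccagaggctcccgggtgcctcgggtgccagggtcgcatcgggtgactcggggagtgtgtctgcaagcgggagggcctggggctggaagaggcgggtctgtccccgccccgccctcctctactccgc
Ada: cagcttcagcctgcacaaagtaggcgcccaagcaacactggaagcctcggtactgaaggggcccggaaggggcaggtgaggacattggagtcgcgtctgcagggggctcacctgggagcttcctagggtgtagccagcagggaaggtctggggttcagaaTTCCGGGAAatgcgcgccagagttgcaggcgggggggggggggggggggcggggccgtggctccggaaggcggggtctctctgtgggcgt
GCGTG stood at bases 138 to 134 before the start of Nt5e, and the GAS-like letters at bases 90 to 82 before the start of Ada, on both strands because the motif is its own reverse complement. Of 32851 RefSeq promoters of the same length, 28.2% held GCGTG and 7.02% a GAS-like match on either strand. Further motifs searched on both strands were GAAANNGAAA, the ISRE-like form bound by interferon-activated factors, in 2.98% of promoters, TGACG, the core of the cyclic AMP response element, in 17.8%, and ACGTG, another hypoxia response core, in 16.6%. Promoters were found for 4 of the 7 genes. In Adora2b GCGTG lay on the opposite strand at bases 42 to 38, and in Entpd1, which has a pair of listed starts, TGACG lay on the opposite strand before both, at bases 135 to 131 and 183 to 179, with GCGTG at bases 18 to 14 before the first. The ISRE-like letters and ACGTG were in none of these windows, which says nothing of the factors themselves.

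Total reads per tumour ran from 15671388 to 19254090 in triple, 14535983 to 19046105 in dual and 14438318 to 17225195 in vehicle tumours, and no gene of the 7 had 0 reads in any tumour. Several triple tumours stood apart. Tumour T_352 lay far out on the first principal component, at 73.1 with 52.4% of the variance, and had the highest summed macrophage, endothelial, fibroblast and T cell markers of all 24 tumours, while tumour T_331 lay at -16.5, between the vehicle and the dual tumours. Skeletal muscle markers, 15 of 15 measured, took 0.100% to 0.237% of reads in 5 triple tumours (T_352, T_353, T_354, T_355 and T_362), against at most 0.0889% in every other tumour. In triple against vehicle tumours 14 of the 15 rose, beside 45.7% of all genes called in limma (23.0% higher). Of 8 epithelial and Lewis lung line markers 6 were measured, and Epcam, an epithelial surface protein, was near 0 with medians of 0.294, 0.032 and 0.122 CPM (read counts scaled to library size) in triple, dual and vehicle tumours, while Krt18, a keratin, had medians of 19.2, 29.3 and 41.98 CPM. Results are therefore given with and without the muscle-rich tumours. In these bulk samples more cells of a type and more RNA per cell cannot be told apart.

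**Figure D1:**
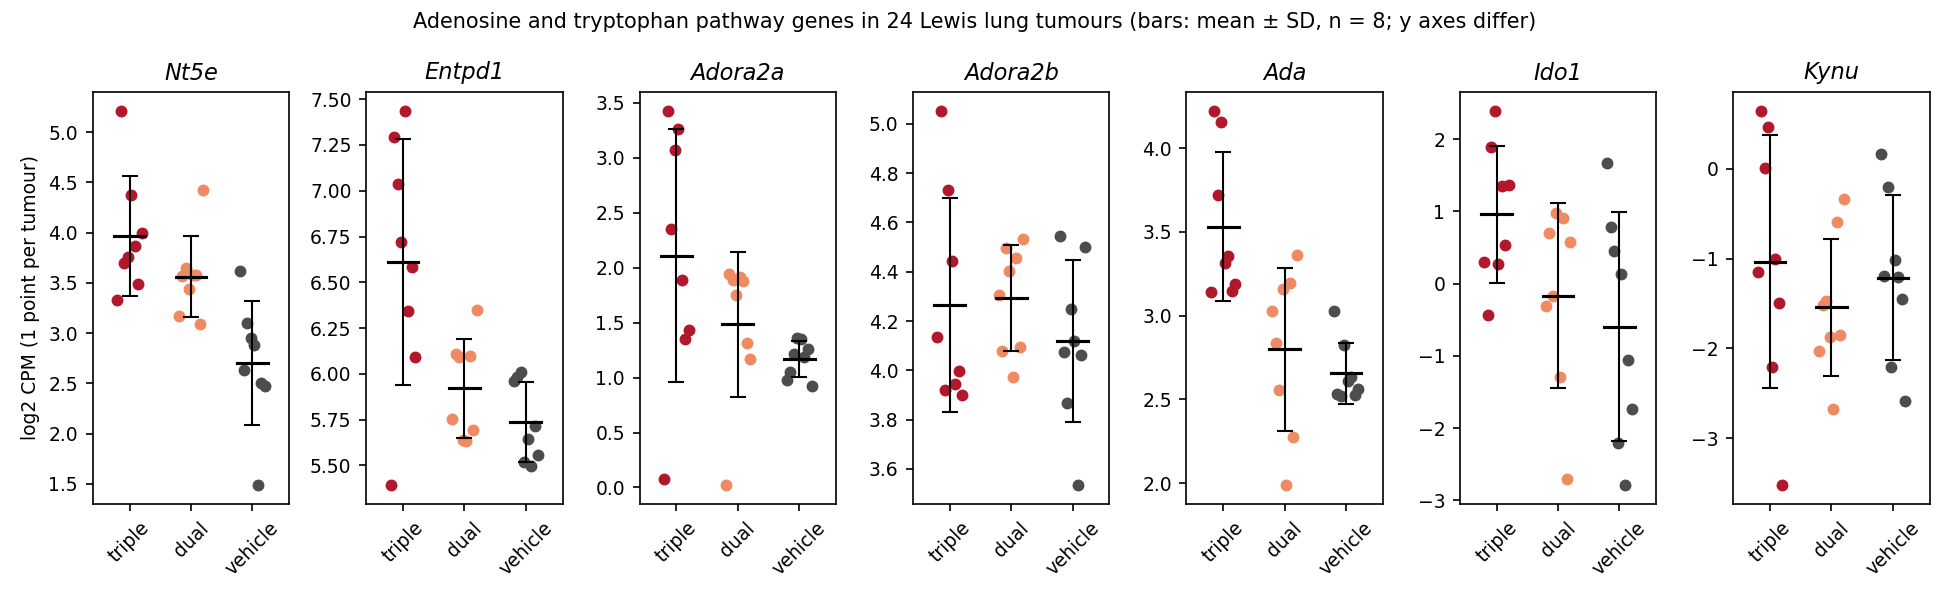
Level of each of the 7 genes in log2 CPM (y axes differ), 1 point per tumour, with mean and SD of 8 triple, 8 dual and 8 vehicle tumours. The 8 triple tumours lie above all 8 vehicle tumours for Ada, while all other genes overlap between groups.

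Nt5e and Ada, the enzymes that make and remove adenosine, together with Entpd1, Adora2a and Ido1, were higher in triple than in vehicle tumours, by 1.83 to 2.94-fold, and Nt5e alone was higher in dual than in vehicle tumours. By limma's test with Benjamini-Hochberg adjustment over all genes, 5 of the 7 genes rose and none fell in triple against vehicle tumours, beside 45.7% of all genes called in that comparison (23.0% higher and 22.8% lower). In dual against vehicle tumours 1 of the 7 rose, beside 30.8% of all genes called (15.0% higher and 15.8% lower). In triple against dual tumours Entpd1 and Ada rose, 2 of the 7, beside 21.4% of all genes called (11.4% higher and 9.97% lower). The median log2 fold change over the 7 genes was 0.88, 0.18 and 0.62 in these comparisons, beside -0.02, -0.03 and -0.004 over all genes. The comparisons share their tumours pairwise and are not independent of each other.

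Entpd1, the CD39 gene that starts the chain, was the highest of the 7 in CPM and lay at percentile 80.2 of mean expression over all genes. Its level ran from 41.99 to 173 CPM with a median of 101 in triple tumours, from 49.7 to 81.4 CPM with a median of 61.2 in dual tumours and from 45.2 to 64.4 CPM with a median of 51.3 in vehicle tumours. In 7 of 8 triple tumours it was above every vehicle tumour, and triple tumour T_331 was below all of them, so that the triple group held both the highest and the lowest values of the study. Triple tumours were 1.83-fold above vehicle tumours, with a log2 fold change of 0.88 ± 0.20 (SE, n = 8 each, adjusted p = 0.00128 in limma). Against dual tumours they were 1.61-fold higher, at 0.69 ± 0.20 (adjusted p = 0.0214). Dual against vehicle gave 0.18 ± 0.20 with a 95% confidence interval of -0.23 to 0.60 (adjusted p = 0.524).

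The 5 muscle-rich triple tumours had Entpd1 between 96.0 and 173 CPM, whereas the 3 other triple tumours had 41.99 to 81.1 CPM, against 45.2 to 81.4 CPM over the 16 dual and vehicle tumours. Entpd1 thus did not overlap between those 5 tumours and the remaining tumours of the study. The share of all genes that separate the tumours in this way was not counted, so the split is a description only. With a muscle score in the model the log2 fold change was 0.29 in triple against vehicle (adjusted p = 0.303) and 0.31 in triple against dual tumours (adjusted p = 0.329), and without the 5 tumours 0.21 (adjusted p = 0.407) and 0.02 (adjusted p = 0.981), so that both calls were lost. The same fits called 20.2% and 30.4% of all genes in triple against vehicle, but 0.0374% and 0.0107% in triple against dual tumours. Natural killer markers moved beside Entpd1, with summed medians of 20.9 CPM in triple, 6.01 CPM in dual and 6.89 CPM in vehicle tumours. Of these markers, 4 of 4 rose in triple against dual and against vehicle tumours, beside 21.4% and 45.7% of all genes called. With the muscle score and without the 5 tumours, 0 of 4 were called in either comparison. T cell markers also rose, 6 of 7 in each comparison. Of 7 macrophage markers, 4 rose against dual and 3 against vehicle tumours. The part of muscle, natural killer or other cells in the Entpd1 result was not tested.

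Nt5e, the CD73 gene, was the gene of the set that rose in both treated groups. In triple tumours it ran from 10.0 to 37.1 CPM with a median of 14.1, in dual tumours from 8.53 to 21.4 CPM with a median of 11.9, and in vehicle tumours from 2.80 to 12.3 CPM with a median of 6.79. Every treated tumour was above the vehicle median, and 6 of 8 triple but only 2 of 8 dual tumours were above the highest vehicle tumour, C_339. The log2 fold change was 1.26 ± 0.26 in triple against vehicle tumours (2.39-fold, SE, n = 8 each, adjusted p = 0.00039 in limma). In dual against vehicle tumours it was 0.86 ± 0.26 (1.81-fold, adjusted p = 0.0131). The difference between triple and dual tumours, 0.40 ± 0.26 with an interval of -0.13 to 0.93, did not pass (adjusted p = 0.252).

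Both Nt5e calls were made with each tumour left out in turn. Fits that took account of muscle also called it: triple against vehicle tumours gave 1.03 with the covariate (adjusted p = 0.0282) and 1.02 without the 5 muscle-rich tumours (adjusted p = 0.0155), and dual against vehicle tumours gave 0.78 with the covariate (adjusted p = 0.027). Median Nt5e was 13.6 CPM in the 5 muscle-rich and 14.6 CPM in the 3 other triple tumours. Neutrophil markers were also higher in both treated groups than in vehicle tumours, where 7 of 7 rose in each. Of all genes, 45.7% were called in triple and 30.8% in dual against vehicle tumours. The summed neutrophil medians were 367.5 CPM in triple, 647 CPM in dual and 51.5 CPM in vehicle tumours. In triple against dual tumours 1 of the 7 neutrophil markers fell and none rose, beside 21.4% of all genes called. Their part in the Nt5e result was not tested.

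Of the receptor genes Adora2a passed in 1 comparison and Adora2b in none, and the difference between them was not tested. Adora2a, encoding the high-affinity adenosine receptor that T cells and natural killer cells carry, ran from 1.05 to 10.8 CPM with a median of 4.41 in triple tumours, from 1.01 to 3.84 CPM with a median of 3.52 in dual tumours and from 1.90 to 2.57 CPM with a median of 2.30 in vehicle tumours. Vehicle tumours lay close together, with an SD of 0.16 on the log2 scale, whereas triple tumours had an SD of 1.15, and 6 of 8 triple tumours were above every vehicle tumour with 1 below. Triple against vehicle tumours gave a log2 fold change of 0.94 ± 0.36 (1.92-fold, SE, n = 8 each, adjusted p = 0.0372 in limma). In dual against vehicle tumours it was 0.32 ± 0.36 (adjusted p = 0.537), although 5 of 8 dual tumours were above the highest vehicle tumour. Triple against dual tumours gave 0.62 ± 0.36, with an interval of -0.13 to 1.37 (adjusted p = 0.211).

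The Adora2a call did not withstand leaving out single tumours. It was lost without triple tumour T_352 (adjusted p = 0.0822), T_353 (0.0594), T_354 (0.0827) or T_355 (0.0858), and without vehicle tumour C_339 (0.0568), C_351 (0.0555) or C_375 (0.0601). It was also lost when only triple and vehicle tumours were fitted (adjusted p = 0.0555). In the 5 muscle-rich triple tumours Adora2a ran from 2.55 to 10.8 CPM, in the 3 others from 1.05 to 3.69 CPM. The log2 fold change against vehicle was 0.11 when muscle was modelled (adjusted p = 0.873), and in the triple tumours not rich in muscle it was -0.036 (adjusted p = 0.952). Without tumour T_331, the lowest triple tumour, the Adora2a call against vehicle was kept, at 1.23 (adjusted p = 0.00189). The comparison with dual tumours then passed too, at 0.91 (adjusted p = 0.0238). That fit called 49.2% of all genes in triple against vehicle and 35.6% in triple against dual tumours.

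Adora2b, encoding a low-affinity adenosine receptor, which responds where adenosine is abundant, did not pass in any comparison. Its levels were 14.9 to 33.2 CPM with a median of 16.8 in triple tumours, 15.7 to 23.2 CPM with a median of 20.5 in dual tumours and 11.6 to 23.4 CPM with a median of 17.1 in vehicle tumours. The groups overlapped along most of their range. The intervals of the log2 fold changes were -0.19 to 0.48 for triple against vehicle, -0.16 to 0.51 for dual against vehicle and -0.36 to 0.31 for triple against dual tumours (adjusted p = 0.475, 0.441 and 0.919 in limma). These intervals do not include a change of the size fitted for Nt5e in triple tumours.

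Ada was the gene whose triple and vehicle tumours did not overlap, as was so, in either direction, for 9.85% of all genes. In dual against vehicle and triple against dual tumours all 7 genes overlapped, beside 9.46% and 0.475% of all genes that did not. Adenosine deaminase is best known from its loss, which in humans causes severe combined immunodeficiency. The level ran from 8.82 to 18.7 CPM with a median of 10.1 in triple tumours, from 3.97 to 10.3 CPM with a median of 7.65 in dual tumours and from 5.74 to 8.15 CPM with a median of 6.01 in vehicle tumours. Dual tumours lay on both sides of the vehicle range, 3 above it and 2 below it. The log2 fold change was 0.88 ± 0.19 in triple against vehicle (1.84-fold, SE, n = 8 each, adjusted p = 0.000726 in limma) and 0.73 ± 0.19 in triple against dual tumours (1.66-fold, adjusted p = 0.0129), with 8 of 8 triple tumours above each median. Dual against vehicle tumours gave 0.14 ± 0.19 (adjusted p = 0.604).

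Ada was 8.87 to 18.7 CPM in the 5 muscle-rich triple tumours and 8.82 to 10.2 CPM in the 3 others, so that these 3 tumours were still above every vehicle tumour. In triple against vehicle tumours the log2 fold change was 0.51 with the muscle covariate (adjusted p = 0.106) and 0.57 without the 5 tumours (adjusted p = 0.0551), neither past the threshold. In triple against dual tumours it was 0.50 (adjusted p = 0.191) and 0.43 (adjusted p = 0.56). No single tumour ended either Ada call.

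The tryptophan enzymes were expressed at low levels. Ido1 had 12 to 93 reads per triple tumour, 2 to 35 per dual tumour and 2 to 52 per vehicle tumour, or 0.738 to 5.25 CPM with a median of 1.996 in triple, 0.154 to 1.97 CPM with a median of 1.19 in dual and 0.144 to 3.18 CPM with a median of 0.785 in vehicle tumours. All triple tumours were above the vehicle median, but only 2 were above the highest vehicle tumour, C_339, and the lowest was tumour T_352. The log2 fold change was 1.55 ± 0.61 in triple against vehicle (2.94-fold, SE, n = 8 each, adjusted p = 0.0386 in limma), and its interval of 0.31 to 2.80 was the widest of the 7 genes. Triple against dual tumours gave 1.13 ± 0.61 (adjusted p = 0.173) and dual against vehicle tumours 0.43 ± 0.61 (adjusted p = 0.625). The Ido1 call was lost without triple tumour T_353 (adjusted p = 0.0718), T_354 (0.0827), T_360 (0.0608) or T_363 (0.0583), and without vehicle tumour C_358 (0.0837), C_364 (0.0905), C_369 (0.0626) or C_375 (0.0768). It was also lost with quantile normalization (adjusted p = 0.0525) and in the exact Wilcoxon test (adjusted p = 0.123). Unlike Adora2a it had as large a fold change without the 5 muscle-rich tumours, 1.601, though with 3 triple tumours left it did not pass (adjusted p = 0.148), and with the muscle covariate it was 0.76 (adjusted p = 0.512).

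Kynu was the lowest of the 7, with 1 to 26 reads per triple tumour, 2 to 12 per dual tumour and 2 to 18 per vehicle tumour. Medians were 0.474 CPM in triple, 0.313 CPM in dual and 0.435 CPM in vehicle tumours, and the 3 ranges overlapped. No comparison passed, and the intervals were wide: -0.88 to 1.23 for triple against vehicle, -1.39 to 0.72 for dual against vehicle and -0.54 to 1.57 for triple against dual tumours (adjusted p = 0.798, 0.659 and 0.481 in limma). A change of the size fitted for Entpd1 or Ada in triple against vehicle tumours lies within the first interval.

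A two-sided exact permutation test of the 8 against 8 tumours was run for each gene and comparison, 21 tests in all. In triple against vehicle tumours the exact p was 0.000155 for Ada, the smallest that the 12870 assignments of tumours allow, 0.000466 for Nt5e, 0.00451 for Entpd1, 0.0345 for Ido1 and 0.0429 for Adora2a, against 0.461 for Adora2b and 0.77 for Kynu. Dual against vehicle tumours gave an exact p = 0.00264 for Nt5e. In triple against dual tumours the exact p was 0.00668 for Ada, 0.0213 for Entpd1 and 0.0623 for Ido1. These p-values are not adjusted.

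**Figure D2:**
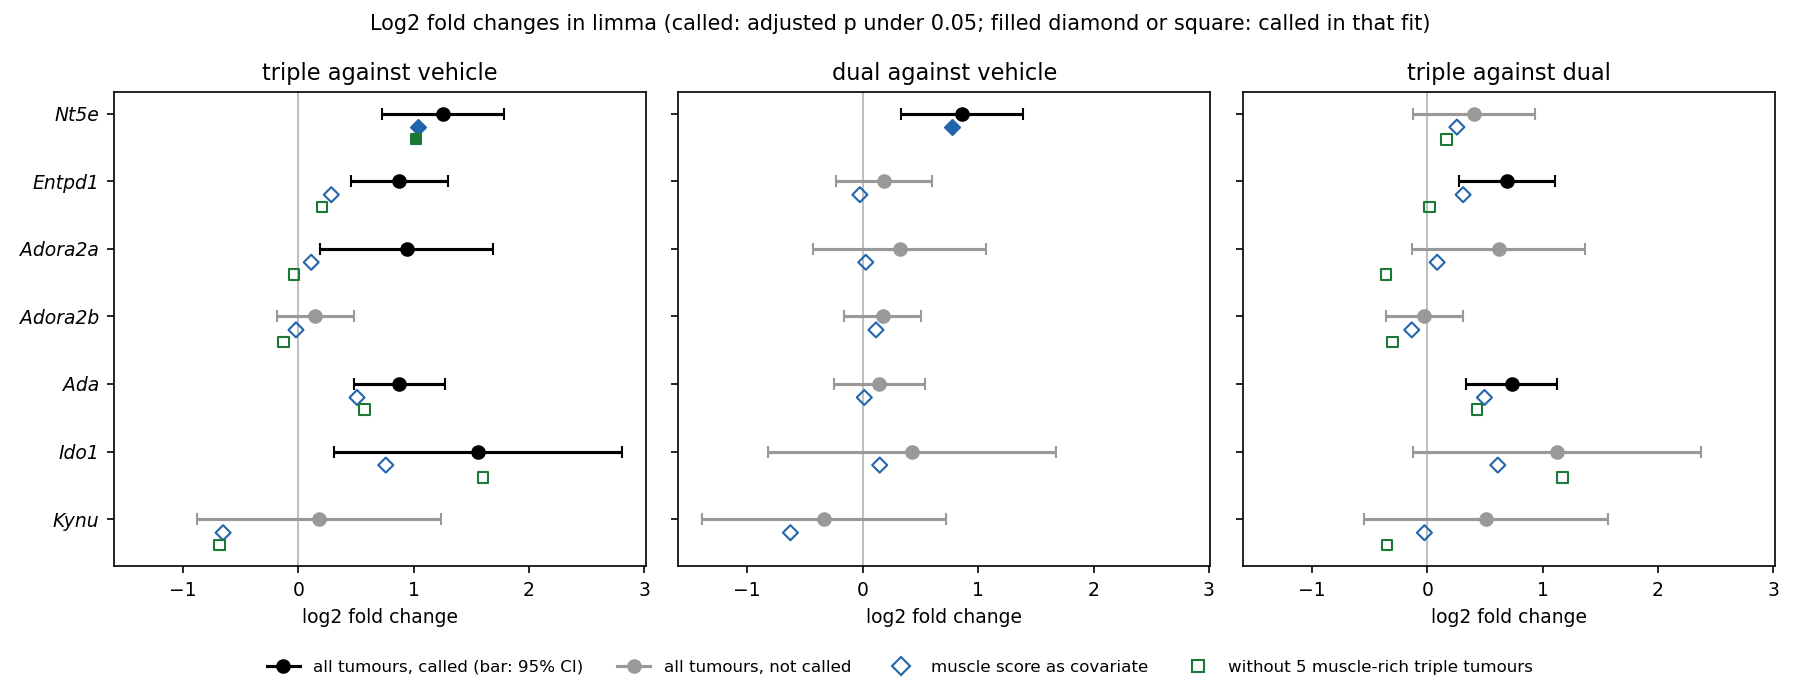
Log2 fold change of each gene in 3 comparisons by limma, with 95% confidence interval (black, adjusted p under 0.05; grey, not), and the value with the muscle score as covariate (diamonds) and without the 5 muscle-rich triple tumours (squares). Nt5e keeps filled symbols against vehicle, at 1.03 and 1.02, whereas Entpd1 and Adora2a in triple against vehicle tumours move toward 0.

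**Figure D3:**
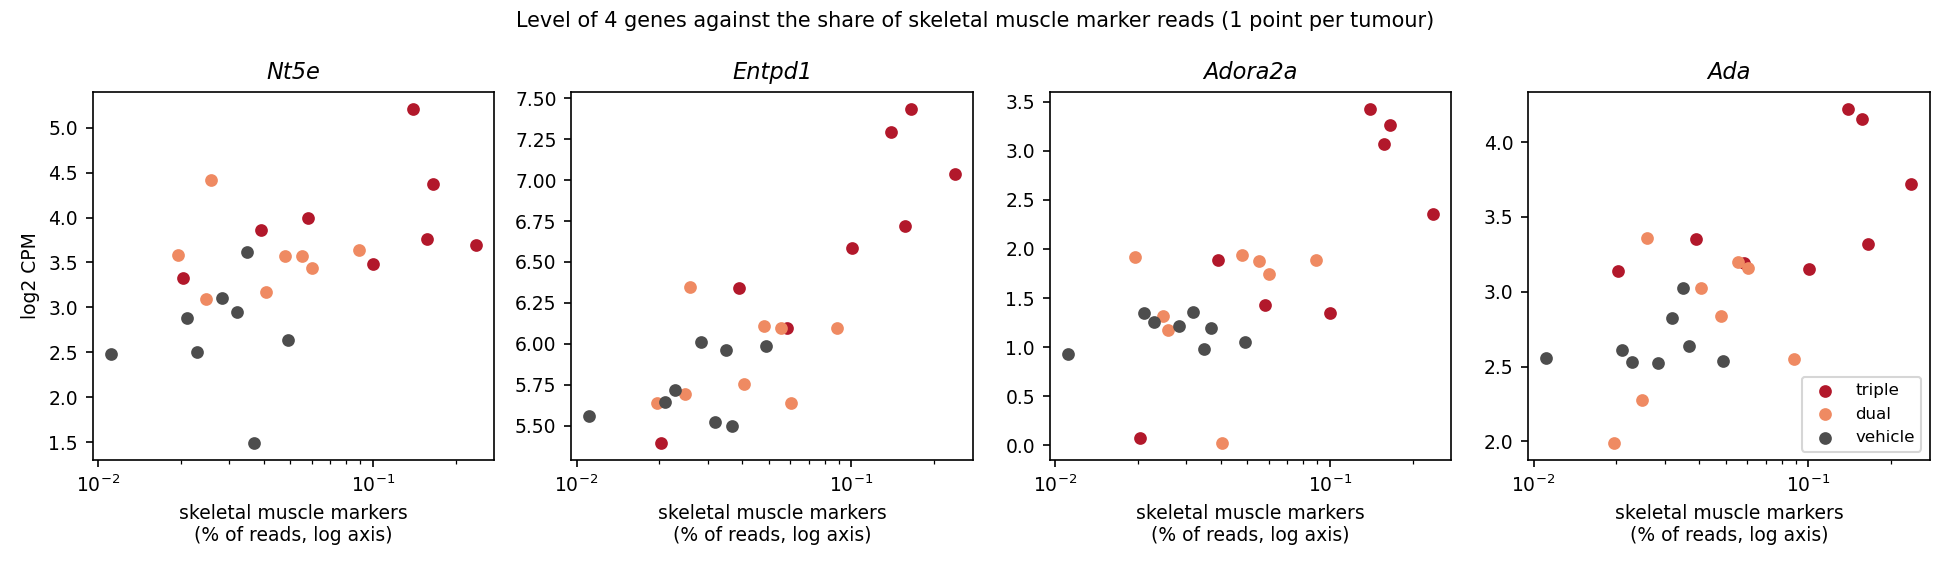
Level of 4 genes in log2 CPM against the share of reads from 15 skeletal muscle markers (percent, log axis), 1 point per tumour. The 5 triple tumours at 0.100% to 0.237% hold the highest Entpd1 of the study, while median Nt5e is 13.6 CPM in these and 14.6 CPM in the other triple tumours.

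Some tumours were high or low for several of the genes at once. Triple tumour T_352 had the highest level of its group for 5 of the 7 genes and the lowest for Ido1, and triple tumour T_331 had the lowest for 4. Dual tumour D_373 was the highest of its group for 5 genes and dual tumour D_367 the lowest for 4. Among vehicle tumours, C_339 was the highest for 5 genes and C_364 the lowest for 4. Without tumour T_352 the calls of triple against vehicle tumours fell to 4 of 7, beside 45.2% of all genes, with Adora2a lost. Both calls of triple against dual tumours were still made, beside 13.2% of all genes. They were at 0.59 for Entpd1 (adjusted p = 0.0484 in limma) and 0.63 for Ada (adjusted p = 0.027).

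Per kilobase of exon, taken from the GENCODE M21 annotation, the order of the genes could be read within a group. Entpd1 stood first in triple tumours with a median of 18.0 CPM per kilobase, followed by Adora2b with 9.08, with ranges that overlapped and Adora2b above Entpd1 in T_331, while in dual and vehicle tumours Adora2b and Entpd1 were close together, at 11.1 and 11.0 in dual and 9.27 and 9.20 in vehicle tumours, with ranges that overlapped. Ada came next with 5.04, 3.82 and 3.001 CPM per kilobase in triple, dual and vehicle tumours. Nt5e, with 1.64, 1.38 and 0.789, and Adora2a, with 1.44, 1.15 and 0.752, were neighbours whose ranges overlapped in each group. Ido1 had 1.09, 0.652 and 0.430 and Kynu 0.0772, 0.0509 and 0.0708 CPM per kilobase. In every one of the 24 tumours Adora2b was above Adora2a per kilobase, and the ratio of Adora2a to Adora2b had a median of 0.166 in triple, 0.0974 in dual and 0.0839 in vehicle tumours. The ratio of Ada to Nt5e per kilobase had medians of 3.20, 2.51 and 3.98 in triple, dual and vehicle tumours, with ranges that overlapped.

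Over the 24 tumours, after each group's mean was subtracted, levels of the genes went together to different degrees. These correlations are descriptions over tumours that share library order and depth, and the values in brackets leave out T_352 and T_331, the triple tumours at the high and low end of their group on the first principal component. Entpd1 and Adora2a had r = 0.71, Ada and Kynu 0.66, and Nt5e and Adora2b and Adora2b and Ada 0.65 each, whereas Adora2a and Ido1 had 0.04. Entpd1 was closest to the natural killer marker list, with r = 0.92 (0.86). It had 0.82 (0.67) with T cell, 0.77 (0.63) with macrophage, 0.74 (0.49) with endothelial and 0.71 (0.56) with muscle markers. Nt5e had 0.65 (0.45) with endothelial, 0.59 (0.52) with neutrophil and 0.22 (0.01) with muscle markers. Adora2b had its highest r, 0.70 (0.66), with neutrophil markers. Adora2a had 0.70 (0.46) with fibroblast, 0.69 (0.44) with natural killer, 0.68 (0.38) with macrophage and 0.68 (0.56) with regulatory T cell markers. Ada had 0.62 (0.52) with endothelial markers. Ido1 had its highest r with T cell markers, 0.49 (0.72), and had -0.08 (0.05) for macrophage and -0.34 (-0.39) for fibroblast markers. Kynu had 0.64 (0.74) with T cell, 0.63 (0.65) with B cell and 0.60 (0.68) with macrophage markers. Summed T cell markers, 7 of 7 measured, were 23.5 to 121 CPM in triple, 19.0 to 48.8 CPM in dual and 17.8 to 41.9 CPM in vehicle tumours, and macrophage markers 866 to 5048, 894 to 1265 and 1067 to 1632 CPM. Their part in the levels of these genes was not tested.

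**Figure D4:**
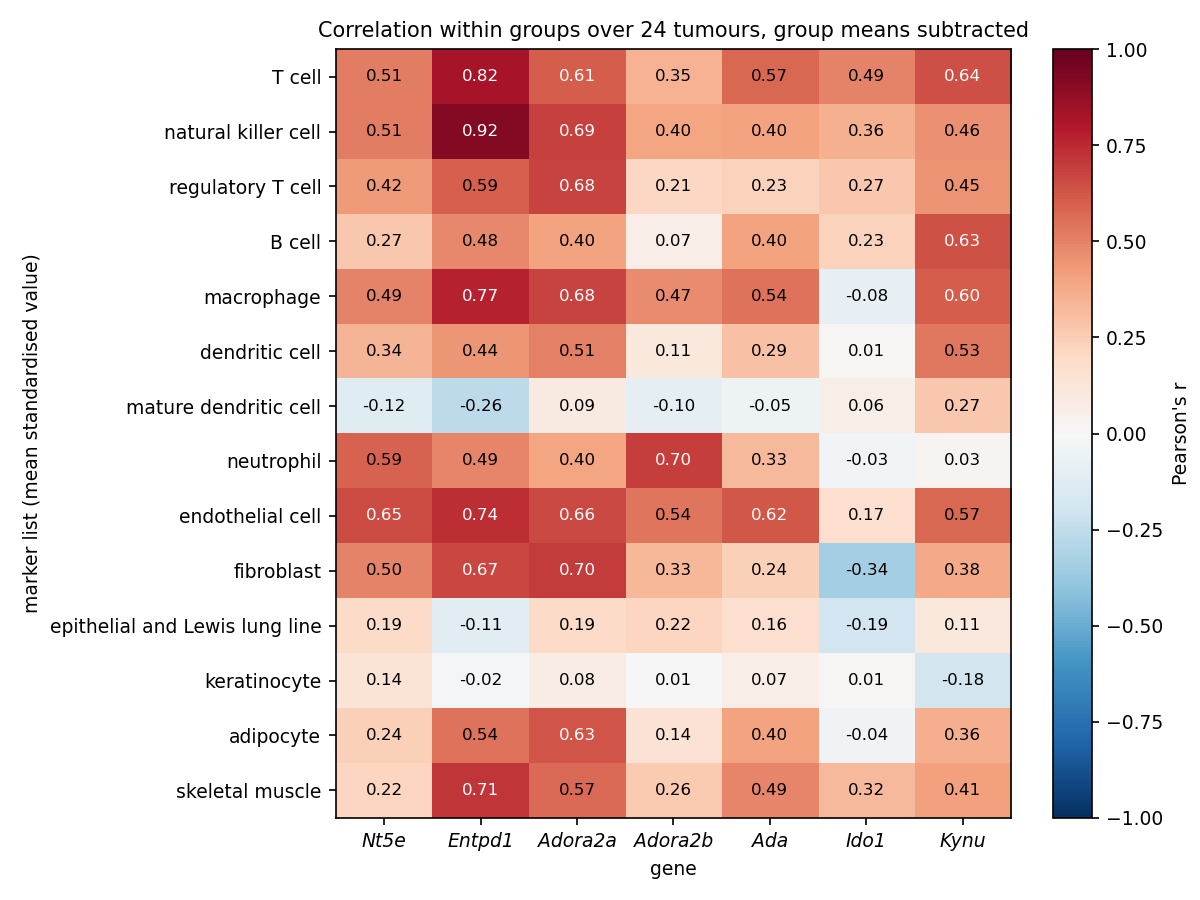
Pearson correlation over 24 tumours, with group means subtracted, between each of the 7 genes (columns) and the mean standardised value of 14 cell type marker lists (rows). The highest value is 0.92, for Entpd1 with natural killer markers, and the lowest is -0.34, for Ido1 with fibroblast markers.

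Single genes most like each of the 7 were taken as the 5 highest correlations of this kind among genes of at least median expression. For Ido1 they were Igtp, Gbp4, Irgm1 and Iigp1, which encode interferon-inducible GTPases, and the transcription factor gene Batf2, with r from 0.88 to 0.91 (0.89 to 0.91). For Entpd1 they were Gimap4, a lymphocyte GTPase gene, Csf2rb, the shared receptor chain for GM-CSF and interleukin-3, Itgal, the LFA-1 integrin chain of leukocytes, Gvin3 and Tbc1d2b, with r from 0.92 to 0.94 (0.84 to 0.89). For Adora2a they were Gripap1, Slfn5, Trim30a, Trim34a and the amino acid transporter gene Slc7a8, at 0.88 to 0.90 (0.79 to 0.81). For Nt5e they were Ifitm1, the protease inhibitor gene Slpi, the inhibin subunit gene Inhbb, the collagen prolyl hydroxylase gene P4ha2 and Il13ra1, at 0.82 to 0.86 (0.71 to 0.80). Adora2b was most like the iron-carrier gene Lcn2, the glycolytic gene Aldoa, Glrx, Sra1 and Ifitm1, at 0.83 to 0.87 (0.79 to 0.87). Ada was most like Blvrb, Arhgdib, Ciao2a, Tmem51 and Dnajb11, at 0.83 to 0.88 (0.78 to 0.85), and Kynu most like Lpar6, Cd74, Tmco4, Ptpn6 and Orai3, at 0.75 to 0.77 (0.72 to 0.86).

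Other genes of both routes were read from 8 lists of 61 genes, of which 55 were measured. In triple against vehicle tumours 26 rose and 7 fell, or 60.0% of them beside 45.7% of all genes, with a median log2 fold change of 0.50. In dual against vehicle tumours 16 rose and 6 fell (40% beside 30.8%), and in triple against dual tumours 9 rose and 5 fell (25.5% beside 21.4%). With the muscle covariate the counts were 11 and 4 in triple against vehicle tumours (27.3% beside 20.2% of all genes). They were 17 and 8 in dual against vehicle (45.5% beside 31.4%) and 0 and 0 in triple against dual tumours (beside 0.0374%). Without the 5 muscle-rich tumours they were 13 and 9 in triple against vehicle tumours (40% beside 30.4%). In triple against dual tumours they were then 0 and 0, beside 0.0107% of all genes.

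Of 11 genes of ATP release and P2 receptors, 4 rose and 1 fell in triple against vehicle tumours (45.5% beside 45.7% of all genes). In dual against vehicle tumours 2 rose and 2 fell (36.4% beside 30.8%), and in triple against dual tumours 3 rose and none fell (27.3% beside 21.4%). With the muscle covariate 2 rose and 3 fell in triple against vehicle tumours (45.5% beside 20.2%). Without the muscle-rich tumours 2 rose and 4 fell (54.5% beside 30.4%). In triple against dual tumours none passed in either fit, beside 0.0374% and 0.0107% of all genes. P2ry2, a receptor for ATP and UTP, had medians of 15.0 CPM in triple and 18.6 CPM in dual against 5.21 CPM in vehicle tumours. Neither treated group overlapped the vehicle tumours, as was so for 9.85% of all genes in triple and 9.46% in dual tumours. Its log2 fold changes were 1.72 ± 0.23 and 1.69 ± 0.23 (adjusted p = 4.05e-06 and 9.57e-06 in limma). Panx1, a channel that releases ATP, had 20.1 and 21.2 against 11.1 CPM, at 0.92 ± 0.15 and 0.84 ± 0.15 (adjusted p = 4.75e-05 and 0.0002). P2ry14, a receptor for UDP-sugars, fell in both, to medians of 21.5 CPM in triple and 14.1 CPM in dual against 40.5 CPM in vehicle tumours (adjusted p = 0.000968 and 2.29e-05). The ATP-gated channel gene P2rx4 rose in triple tumours against both dual and vehicle tumours, with medians of 102, 64.5 and 54.9 CPM in triple, dual and vehicle tumours (adjusted p = 0.0411 and 0.00444).

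Among 8 further ectonucleotidases and phosphatases, 5 rose and 1 fell in triple against vehicle tumours (75% beside 45.7% of all genes). In dual against vehicle tumours 3 rose and 2 fell (62.5% beside 30.8%), and in triple against dual tumours 3 rose and 1 fell (50% beside 21.4%). With the muscle covariate 2 rose and 1 fell in triple against vehicle tumours (37.5% beside 20.2%). In dual against vehicle tumours 3 rose and 1 fell in that fit (50% beside 31.4%). Without the muscle-rich tumours 2 rose and 2 fell in triple against vehicle tumours (50% beside 30.4%). In triple against dual tumours none passed in either fit, beside 0.0374% and 0.0107% of all genes. Bst1 and Cd38 encode related enzymes that consume NAD and CD38 belongs to an alternative route to adenosine. Bst1 had medians of 110 CPM in triple, 42.8 CPM in dual and 19.4 CPM in vehicle tumours, with log2 fold changes of 2.44 ± 0.36 and 1.23 ± 0.36 against vehicle (adjusted p = 1.26e-05 and 0.0112 in limma). Cd38 had 92.5, 63.2 and 54.7 CPM in triple, dual and vehicle tumours, and rose in triple against vehicle at 0.86 ± 0.20 (adjusted p = 0.00108) and against dual tumours at 0.67 ± 0.20 (adjusted p = 0.0208). Entpd3, a relative of Entpd1, had low medians of 2.19 CPM in triple and 2.77 CPM in dual against 0.805 CPM in vehicle tumours and rose in both (adjusted p = 0.000511 and 0.000568). Acpp, a phosphatase that can act on AMP, fell in both, with medians of 17.8 CPM in triple, 26.1 CPM in dual and 43.4 CPM in vehicle tumours (adjusted p = 6.84e-05 and 0.0447).

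Of the other adenosine receptors, Adora3 had medians of 2.62 CPM in triple, 1.62 CPM in dual and 1.24 CPM in vehicle tumours and rose in triple against vehicle tumours at 0.92 ± 0.28 (adjusted p = 0.00994 in limma). Adora1 also passed in that comparison (adjusted p = 0.0121), at medians of 0.374, 0.145 and 0.0892 CPM in triple, dual and vehicle tumours, near the level of a few reads. Of Adora1 and Adora3, 0 of 2 passed in triple against vehicle tumours with the muscle covariate, beside 20.2% of all genes. Without the muscle-rich tumours 0 of 2 passed, beside 30.4% of all genes. Of 8 genes of adenosine transport and removal, 6 rose and 1 fell in triple against vehicle tumours (87.5% beside 45.7% of all genes). In dual against vehicle tumours 3 rose and none fell (37.5% beside 30.8%), and in triple against dual tumours 2 rose and 2 fell (50% beside 21.4%). With the muscle covariate 3 rose and none fell in triple against vehicle tumours (37.5% beside 20.2%). Without the muscle-rich tumours 4 rose and none fell (50% beside 30.4%). In triple against dual tumours none passed in either fit, beside 0.0374% and 0.0107% of all genes. Slc28a2, a concentrative transporter of purine nucleosides, had medians of 60.3 CPM in triple, 17.1 CPM in dual and 11.5 CPM in vehicle tumours, and rose in triple against vehicle at 2.22 ± 0.35 (adjusted p = 2.86e-05) and against dual tumours at 1.58 ± 0.35 (adjusted p = 0.00673). Pnp, which acts on the inosine that adenosine deaminase makes, rose in triple tumours against vehicle at 1.02 ± 0.21 (adjusted p = 0.000342) and against dual tumours at 0.58 ± 0.21 (adjusted p = 0.0448). Dpp4, or CD26, which in humans binds adenosine deaminase at the cell surface, had medians of 11.9 CPM in triple, 4.50 CPM in dual and 3.57 CPM in vehicle tumours (adjusted p = 0.00801 for triple against vehicle). The equilibrative transporter gene Slc29a1 rose more in dual than in triple tumours, with medians of 101, 129 and 80.1 CPM in triple, dual and vehicle tumours, and triple against dual tumours gave -0.29 ± 0.10 (adjusted p = 0.0448). Adk, which returns adenosine to AMP inside cells, had medians of 39.99, 47.4 and 38.03 CPM in triple, dual and vehicle tumours and rose in dual against vehicle tumours by 0.27 on the log2 scale (adjusted p = 0.0399).

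Genes that respond to cyclic AMP, the messenger of both receptors, were called in both directions. Of 8 measured, 1 rose and 3 fell in triple against vehicle tumours (50% beside 45.7% of all genes). In dual against vehicle tumours 1 rose (12.5% beside 30.8%). The median log2 fold changes in these comparisons were 0.04 and 0.01. The gene that rose in both was Nr4a1, an immediate early nuclear receptor, with medians of 19.4 CPM in triple and 17.3 CPM in dual against 10.1 CPM in vehicle tumours (adjusted p = 0.000904 and 0.0135 in limma). Those that fell in triple against vehicle tumours were Pde4d, a cyclic AMP phosphodiesterase, at -0.49 ± 0.13 (adjusted p = 0.00346), Nr4a2, a relative of Nr4a1, at -0.52 ± 0.15 (adjusted p = 0.00773), and the clock gene Per1, at -0.55 ± 0.20 (adjusted p = 0.0245). With the muscle covariate 0 of the 8 genes were called in triple against vehicle tumours, beside 20.2% of all genes. Without the muscle-rich tumours 0 were called, beside 30.4% of all genes. In dual against vehicle tumours 2 rose with the covariate (25% beside 31.4%).

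On the tryptophan side, 9 of 12 further enzymes were measured. In triple against vehicle tumours 2 rose and 1 fell (33.3% beside 45.7% of all genes), and in dual against vehicle tumours none rose and 2 fell (22.2% beside 30.8%). With the muscle covariate 0 rose and 0 fell in triple against vehicle tumours, beside 20.2% of all genes called. Without the muscle-rich tumours 0 rose and 3 fell (33.3% beside 30.4%). In triple against dual tumours 0 rose and 0 fell in each of those fits, which called 0.0374% and 0.0107% of all genes. Ido2, the relative of Ido1, had medians of 2.65 CPM in triple, 2.16 CPM in dual and 1.35 CPM in vehicle tumours and rose in triple against vehicle tumours at 0.76 ± 0.30 (adjusted p = 0.0427 in limma). Afmid, whose enzyme makes kynurenine from the product of Ido1, fell in both, with medians of 4.998 CPM in triple, 5.53 CPM in dual and 7.80 CPM in vehicle tumours (adjusted p = 0.0012 and 0.0286). Qprt, which leads the route on to NAD, was low, with medians of 0.674, 0.204 and 0.184 CPM in triple, dual and vehicle tumours, and rose in triple against vehicle (adjusted p = 0.00459) and dual tumours (adjusted p = 0.015). Kmo, which competes with kynureninase for kynurenine, had medians of 2.05, 1.46 and 2.67 CPM in triple, dual and vehicle tumours and passed in no comparison. Il4i1, an amino acid oxidase of myeloid cells that also acts on tryptophan, had 3.49, 6.24 and 5.04 CPM and was lower in triple than in dual tumours at -0.67 ± 0.23 (adjusted p = 0.0372). Tdo2 was not analysed here.

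The 3 genes of tryptophan uptake and tRNA charging rose in both treated groups. Of all genes, 45.7% were called in triple and 30.8% in dual against vehicle tumours. Slc3a2, the heavy chain of the large amino acid transporter, ran from 242 to 462 CPM in triple and from 238 to 427 CPM in dual against 135 to 152 CPM in vehicle tumours. No treated tumour reached down to the vehicle range. Of all genes, 9.85% did not overlap between triple and vehicle and 9.46% between dual and vehicle tumours. The log2 fold changes of Slc3a2 were 1.20 ± 0.11 and 1.23 ± 0.11 (adjusted p = 7.82e-08 and 9.03e-08 in limma). The partner of Slc3a2, Slc7a5, had medians of 213 CPM in triple, 269 CPM in dual and 124 CPM in vehicle tumours (adjusted p = 0.0224 and 0.000155), and was lower in triple than in dual tumours (adjusted p = 0.0475). Wars, the tryptophanyl-tRNA synthetase that interferon induces, had 134, 128 and 86.6 CPM in triple, dual and vehicle tumours, at 0.59 ± 0.10 and 0.50 ± 0.10 against vehicle (adjusted p = 4.33e-05 and 0.000415). The count of 3 of 3 against vehicle was also found with the muscle covariate in triple and dual tumours, beside 20.2% and 31.4% of all genes. It was found too in triple tumours without the 5 muscle-rich tumours, beside 30.4%.

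Of 7 listed genes of the aryl hydrocarbon receptor and its targets, 6 were measured, and the target gene Cyp1a1 was not. Of the 6, 3 rose in triple against vehicle tumours (50% beside 45.7% of all genes). In dual against vehicle tumours 4 rose (66.7% beside 30.8%), and none passed in triple against dual tumours, beside 21.4% of all genes. The receptor gene Ahr itself had medians of 19.4 CPM in triple, 21.2 CPM in dual and 15.1 CPM in vehicle tumours (0.50 ± 0.16 and 0.54 ± 0.16, adjusted p = 0.0148 and 0.0131 in limma). Cyp1b1, a cytochrome that the receptor induces, ran from 2.50 to 196 CPM in triple and from 4.34 to 67.3 CPM in dual against 0.767 to 5.002 CPM in vehicle tumours (adjusted p = 0.000241 and 0.00847). Nqo1, a quinone reductase that is also a target of NRF2, had medians of 31.5, 36.2 and 7.85 CPM in triple, dual and vehicle tumours (adjusted p = 7.36e-05 and 3.04e-05). Of these 6 genes, 1 rose in triple against vehicle tumours with the muscle covariate (16.7% beside 20.2% of all genes). Without the muscle-rich tumours 2 rose (33.3% beside 30.4%).

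**Figure D5:**
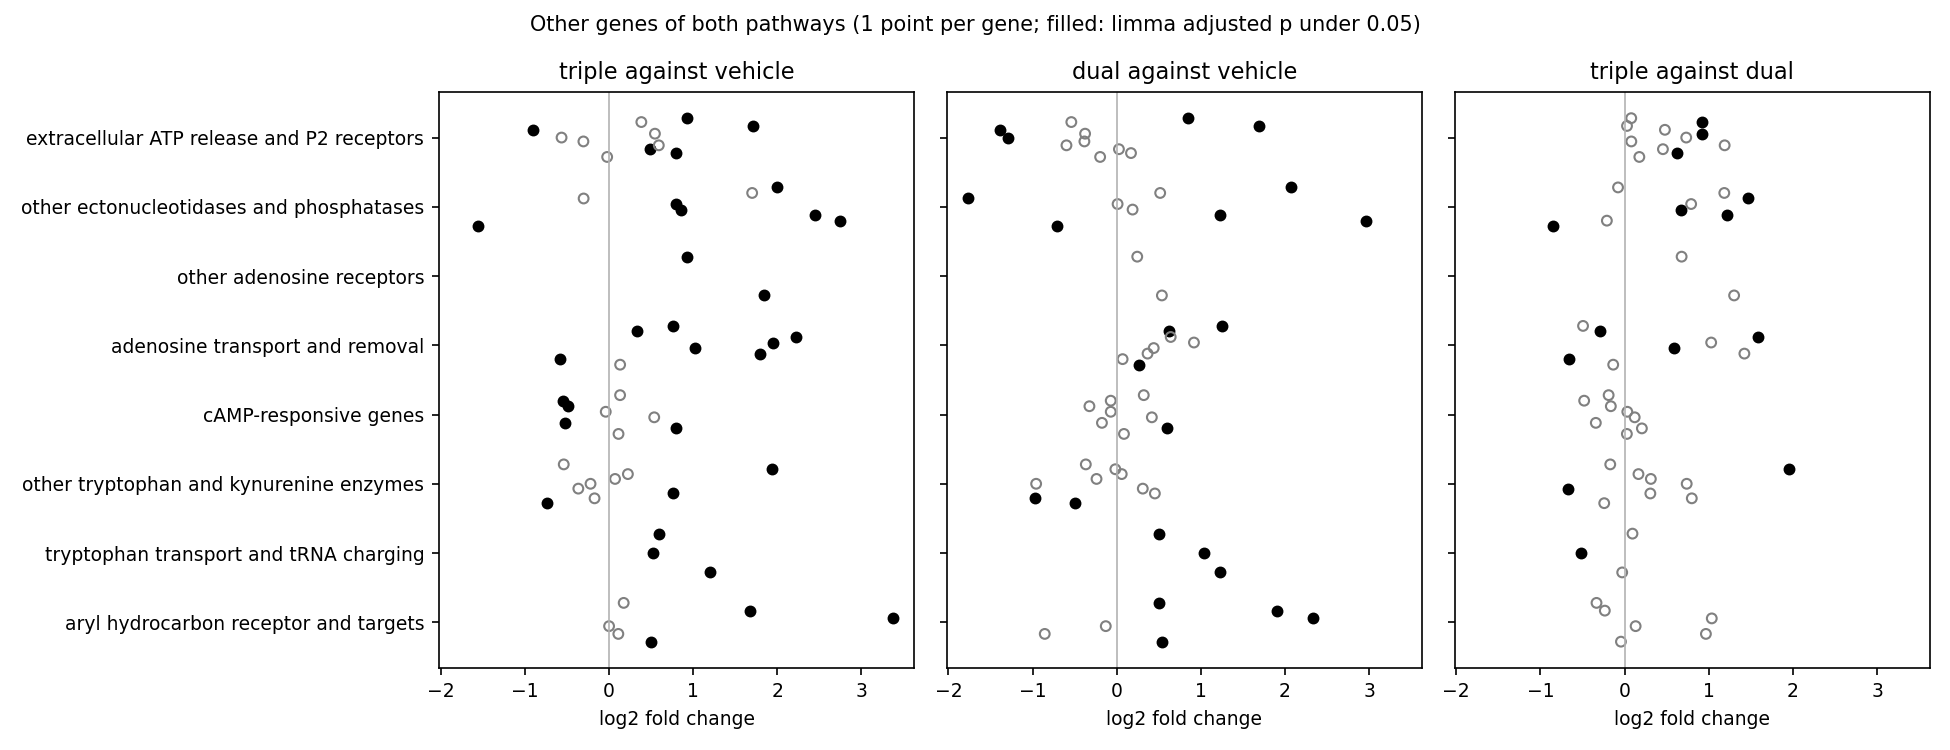
Log2 fold change of each of 55 further genes of both routes, in 8 lists (rows) and 3 comparisons, filled where limma's adjusted p was under 0.05. The 3 tryptophan uptake and tRNA charging genes lie right of 0 against vehicle in both treated groups.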

How the data were processed

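RNA of 24 tumours was measured, 8 per group, and groups came from the sample titles. Per the submitters' processing notes, STAR 2.7.9a, FastQC 0.11.8 and featureCounts 1.6.0 were used with GRCm39, besides edgeR and limma; order, settings and strand of counting are not given in the sources used here. The authors deposited log2 values, which the values themselves show to be log2 CPM: reads plus 0.5, divided by a scaled library size. Whole reads followed from 100% of the values, to within 0.01 reads. The scaled size was 0.880 to 1.07 times the total.

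Deposited log2 values of all 24 tumours were fitted in limma 3.58.1 (R 4.3.3) with a mean for each group, a variance trend and Benjamini-Hochberg adjustment over 18723 genes, called at adjusted p under 0.05. It was tested on simulated data with 200 changed genes. Counts of the recovered reads entered limma with precision weights as an alternative. Exact permutation tests used scipy 1.17.1 in Python 3.11.15, and figures matplotlib 3.10.9. CPM are 2 to the power of the log2 values. The muscle score is the mean standardised value of 15 muscle genes. Of the other genes, at most 4 called genes per list and comparison were named, those with the smallest p, with 10 others fixed by name. Alternatives were other variance models and weights, scalings, filters and tests, a stricter threshold, both muscle fits and leaving out each tumour. Intervals are for the spread between tumours. The genes, lists and alternatives were chosen with earlier results of these data known.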

Additional observations from a re-analysis of the deposited data

Results flagged for a closer look

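Of 21 sets of 8 tumours (7 genes in 3 groups), 2 held a tumour whose gap to its nearest neighbour, divided by the group's range, exceeded Dixon's critical value for 8 samples, and chance alone gives about 1 in 20. Nt5e in dual tumour D_373 was the highest of its group, at 4.42 on the log2 CPM scale (21.4 CPM), with the nearest dual tumour at 3.64 (12.5 CPM). Adora2a in dual tumour D_344 was the lowest of its group, at 0.021 on the log2 CPM scale (1.01 CPM), with the nearest dual tumour at 1.17 (2.26 CPM). Tumour D_373 was also second among all tumours in summed fibroblast markers, at 7525 CPM. The part of such cells in either value was not tested.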

How the results depend on the processing

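Nt5e was called in each alternative for triple against vehicle tumours. Its log2 fold change ran from 1.08 to 1.39 without single tumours and from 1.02 to 1.27 in the other alternatives. At an adjusted p under 0.05, Nt5e was also called in each alternative for dual against vehicle tumours. The 5 of 7 genes called in triple against vehicle tumours became 1 with the muscle covariate, 1 without the 5 muscle-rich triple tumours, 3 at adjusted p under 0.01 and 4 each with those 2 groups alone, quantile normalization and the exact Wilcoxon test, and 3 to 5 without single tumours (3 without T_353, T_354 or C_375). The 1 in dual against vehicle tumours became 0 at adjusted p under 0.01, and was 1 without each single tumour. The 2 in triple against dual tumours became 0 with those 2 groups alone, in the exact Wilcoxon test, in both muscle fits and at adjusted p under 0.01, and were 2 to 3 without single tumours. Over all genes, 8560 calls in triple against vehicle tumours became 3789 with the covariate and 5701 without the muscle-rich tumours. In dual against vehicle tumours 5760 became 9211 with tumour weights and 3454 at adjusted p under 0.01. In triple against dual tumours 4007 became 1374 with 2 groups alone, 789 in the Wilcoxon test, 7 with the covariate, 2 without the muscle-rich tumours and 770 at adjusted p under 0.01, and ran from 2424 (without T_353) and 2471 (without T_352) to 6673 (without T_331). Precision weights on the recovered reads gave 8539, 5629 and 3823 calls in the 3 comparisons and the same numbers of the 7 genes. Directions that turned were of uncalled genes or of Adora2a. For triple against vehicle, Adora2b was -0.039 with tumour weights, -0.019 with the covariate and -0.13 without the muscle-rich tumours, Kynu -0.65 with the covariate and -0.68 without those tumours, and Adora2a -0.036 without them. Entpd1 in dual against vehicle was -0.024 with the covariate. In triple against dual, Kynu was -0.024 with the covariate and -0.35 without the muscle-rich tumours, and Adora2a -0.36 without them. Without single tumours, Kynu in triple against vehicle ran from -0.062 to 0.53 and Adora2b in triple against dual from -0.14 to 0.026. The causes were not tested. Quantile normalization moved the all-gene median to -0.11 in triple against vehicle and median centring to -0.10 in triple against dual tumours. The higher share of calls in triple against dual tumours was 53.4%, against 36.7% with median centring and 42.6% with quantile normalization, and no called member changed direction under either. Kynu was not tested under the expression filter, which removed it. No paired analysis was possible because the groups share no tumour numbers. Ido1 and Kynu had at most 93 reads per tumour, and the part of depth in their spread was not tested.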
